A study of Homo sapiens and Mus musculus with 10 samples.

Results

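The 53 genes described here are the clustered protocadherins on human chromosome 5, out of 19970 protein-coding genes on the autosomes and X. They were taken by name, as every protein-coding gene of GENCODE release 44 on that chromosome whose symbol starts with PCDHA, PCDHB or PCDHG. By symbol they are 13 alpha genes, the 2 C-type genes PCDHAC1 and PCDHAC2 at the end of the alpha cluster, 16 beta genes, 12 gamma A genes, 7 gamma B genes and the 3 C-type genes PCDHGC3, PCDHGC4 and PCDHGC5 at the end of the gamma cluster. All lie on the plus strand within chr5:140786136-141512977 (hg38), a stretch of 726842 bp.

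Clustered protocadherins are cell surface proteins that bind copies of themselves on a neighbouring cell, and neurons use the combination they express to tell their own branches from those of others. Each alpha and gamma gene has a variable first exon with its own promoter, spliced to constant exons shared by the whole cluster, while each beta gene is carried by its own exon. In neurons most alpha, beta and gamma promoters are chosen in a mosaic from cell to cell and the C-type promoters are used more broadly. Many of these promoters hold a short conserved box, and the looping protein CTCF and cohesin are known to bring promoters and distant enhancers of the clusters together.

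Accessible chromatin was measured by bulk ATAC-seq, in which the Tn5 transposase inserts adapters into open DNA. The 4 human lines, each with 2 replicates, were GM12878 (B-lymphoblastoid cells made with Epstein-Barr virus), HEK293T (an embryonic kidney line carrying the SV40 large T antigen), HFF1 (foreskin fibroblasts) and K562 (erythroleukaemia cells). The labels name no treatment, sex or genotype, and do not say whether replicates came from separate cultures. Libraries of mouse embryonic stem cells were not analysed here. Each library came as its own list of 52137 to 127359 peaks. Depth was recovered from the lists as the most common background, in reads per window, and was 0.465 and 0.466 in HEK293T against 1.71 to 2.43 in the other 6 libraries. Defining genes of the lines had a start-site peak in both replicates for 5 of 5 B-cell markers in GM12878, 5 of 5 fibroblast markers in HFF1 and 4 of 5 erythroid markers in K562 (KLF1 had none). Some were called in other lines too: PAX5 and EPOR in HFF1, NFE2 in all 4 lines, PDGFRB in GM12878, COL1A2 in K562 and TWIST1 in HEK293T and K562. In HEK293T, the kidney development markers LHX1 and SALL1 had one, and SALL1 was called in HFF1 too. PAX2 and EYA1 had none in any library. Of 5 neuron markers, GM12878 had 1 called and each of the other lines 2.

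A gene counted as called in a line if a deposited peak overlapped the 500 bp on either side of its annotated start in both replicates. GM12878 had 9 of the 53 protocadherins called (17.0%, against 60.0% of all protein-coding genes). HEK293T had 12 (22.6% against 56.0%), HFF1 had 15 (28.3% against 65.1%) and K562 had 18 (34.0% against 58.8%). The share of protocadherins was therefore below the share of all genes in each line. Library by library, 9 and 11 protocadherins had a peak in the GM12878 replicates (61.2% and 61.5% of all genes), 15 and 14 in HEK293T (58.0% and 57.8%), 15 and 19 in HFF1 (66.9% and 66.2%) and 23 and 20 in K562 (60.7% and 59.9%). No test was made of these counts: with 4 lines of 2 libraries, the smallest exact permutation p that a gene's pattern of presence can give is 0.0857.

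The order of the lines changed with the scaling of depth. When pileup and background were scaled to the shallowest library, a setting chosen after seeing the data, HEK293T kept its 12 protocadherins (22.6%), GM12878 had 7 (13.2%), HFF1 6 (11.3%) and K562 5 (9.43%). Over all genes the same scaling gave 57.4% in GM12878, 56.0% in HEK293T, 59.5% in HFF1 and 54.5% in K562. The 50000 best peaks of each library, close to the whole list in HEK293T, were also used. HEK293T then had 12 (22.6%), GM12878 6 (11.3%), K562 6 (11.3%) and HFF1 2 (3.77%), which were PCDHGB7 and PCDHGC3. Over all genes this setting gave 52.9% in GM12878, 55.3% in HEK293T, 54.5% in HFF1 and 55.3% in K562. HEK293T stood first among the 4 lines in both settings. Both settings could only remove calls, and HEK293T lost none, so its first place came from losses in the other lines. In both settings the protocadherin share of every line still lay below that of all genes.

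**Figure D1:**
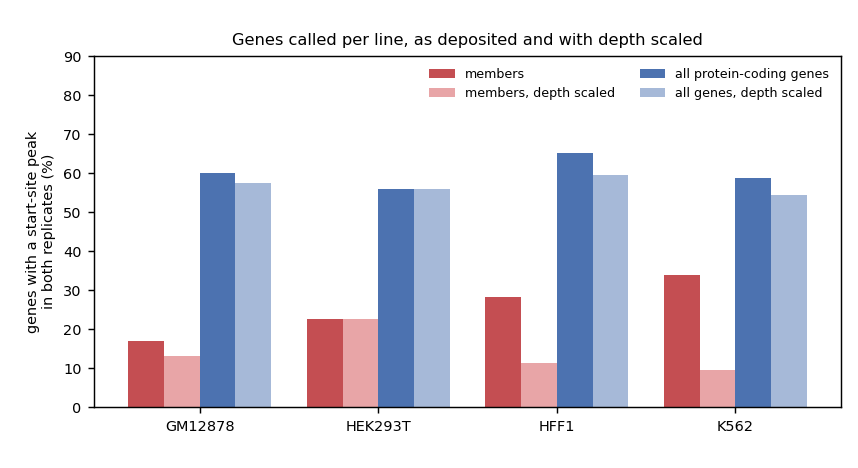
Bars give the percent of genes with a start-site peak in both replicates, for the 53 clustered protocadherins (red) and for all protein-coding genes (blue), in 4 human lines; pale bars are the same after scaling all libraries to the shallowest. The red bars run from 17.0% to 34.0% and the pale red bars from 9.43% to 22.6%, all below the blue bars of 54.5% to 65.1%.

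Most protocadherin promoters were called in few lines. PCDHGB3, PCDHGA10 and PCDHGC3 were called in all 4 lines, 3 of 53 where 48.1% of all genes were, and the same 3 had a peak in all 8 libraries (48.1% of all genes). Another 5 were called in 3 lines (8.16% of all genes), 7 in 2 lines (6.79%) and 13 in 1 line (9.29%). The remaining 25 were called in no line, against 27.6% of all genes, and 19 had no peak in any library, against 24.6%. Of the protocadherins with a peak in either replicate, both replicates had it for 81.8% in GM12878, 70.6% in HEK293T, 78.9% in HFF1 and 72.0% in K562, where all genes gave 93.6% to 95.8%.

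The peaks were narrower and lower in pileup than the typical start-site peak. Over the 8 libraries, 34 protocadherins had 126 start-site peaks with a median width of 222 bp (150 to 1387 bp), where the median start-site peak of all genes was 540 to 839 bp wide in each library. The pileup, meaning the reads stacked at the summit as recovered from the deposited values, had a median of 20.0 over the protocadherins (7 to 112). Library by library, the median protocadherin pileup was 12 in both HEK293T libraries and 42.0 and 40.0 in GM12878, against 33.0 and 103 to 105 over all start-site peaks of those lines. The deposited fold is the authors' linear enrichment of a summit above its local background, and it had a median of 6.83 (3.12 to 17.2). In 7 libraries the median fold of the protocadherins, 6.24 to 8.55, lay below that of all start-site peaks, 8.89 to 10.8. In GM12878 replicate 1 it lay above, at 11 against 9.76, with 5 of 9 protocadherins over the median of all genes. It adds 1 read to summit and background, so it also depends on depth. Comparisons of folds between lines below are of these deposited values and were not tested.

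**Figure D2:**
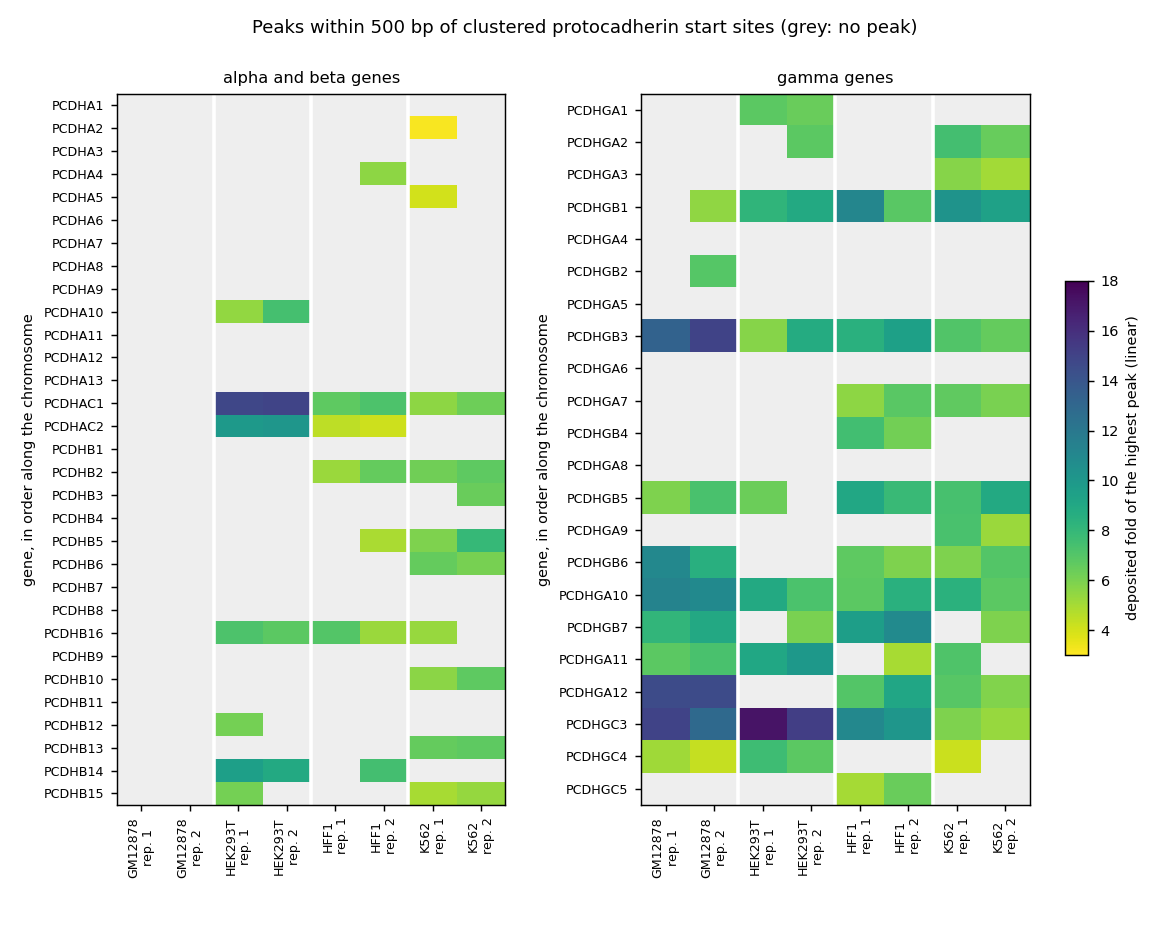
Rows are the 53 genes in chromosome order, columns the 8 libraries, and colour the deposited fold (linear) of the highest peak within 500 bp of the start; grey means no peak. The GM12878 columns are grey for every alpha and beta gene, and PCDHGC3, PCDHGB3 and PCDHGA10 are coloured in all 8 libraries.

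At the GENCODE gene starts, the alpha genes gave a single call over the 4 lines. Of the 13, 12 were called in no line and 9 had no peak in any library. PCDHA10 was the only one called, in HEK293T, with folds of 5.41 and 7.43 and pileups of 7 and 11 in the 2 replicates and no peak in the other 6 libraries. It was among the 3 protocadherins called in HEK293T alone, a pattern shared by 0.851% of all genes. Its lower −log10 q was 4.91, so with at least 5 required in each replicate PCDHA10 was no longer called. PCDHA2 (fold 3.12) and PCDHA5 (4.05) each had a peak in K562 replicate 1 alone, and PCDHA4 (5.55) in HFF1 replicate 2 alone. When any annotated transcript start of a gene was allowed, PCDHA5 was also called in K562 and PCDHA11 in HEK293T.

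The start used for PCDHA11 matters to its call. GENCODE begins the gene 774 bp before the RefSeq start, and HEK293T had a peak over the RefSeq start in both replicates, at chr5:140868780-140869316, with folds of 13.0 and 13.4 and pileups of 26 and 28. No other library had a peak there. With RefSeq starts, an alternative added after seeing the data, PCDHA11 joined the HEK293T calls and made 13. A 6-letter box written GNCGCT, described further on, starts at −60 relative to that RefSeq start. The line below shows the 30 bases around it, with the box in capitals, from the hg38 genome.
PCDHA11 (chr5:140868885-140868914, + strand): taggcgcaaggtGTCGCTctttacttggtg

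Both C-type genes of the alpha cluster had wide, strong peaks in HEK293T. PCDHAC1 had folds of 14.8 and 14.9 in HEK293T with pileups of 67 and 66. Its folds were 6.70 and 7.19 in HFF1 and 5.56 and 6.33 in K562, and GM12878 had no peak. The HEK293T values stood above those of HFF1 and K562 without overlap, although HEK293T was the shallowest line. PCDHAC2 had folds of 9.90 and 10.1 in HEK293T and 4.50 and 4.17 in HFF1, and no peak in GM12878 or K562. In HFF1, PCDHAC2 was no longer called with a −log10 q of at least 5. After scaling to the depth of HEK293T, both genes were called in HEK293T and in no other line.

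The windows of these 2 genes are shown because their base composition sets them apart from the alpha genes beside them. Each line gives 110 bases before to 10 after the GENCODE start in hg38, 5′ to 3′, with GNCGCT on the gene's strand in capitals.
PCDHAC1 (chr5:140926189-140926308, + strand): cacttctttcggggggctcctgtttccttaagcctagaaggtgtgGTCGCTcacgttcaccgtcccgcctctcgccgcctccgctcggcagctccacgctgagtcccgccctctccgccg
PCDHAC2 (chr5:140966360-140966479, + strand): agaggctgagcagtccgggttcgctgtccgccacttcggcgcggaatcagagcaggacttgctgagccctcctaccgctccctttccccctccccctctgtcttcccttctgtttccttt
PCDHA10 (chr5:140855773-140855892, + strand): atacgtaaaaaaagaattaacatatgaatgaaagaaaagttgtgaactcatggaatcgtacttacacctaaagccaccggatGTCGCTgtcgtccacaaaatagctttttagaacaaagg
Over 250 bases before to 50 after the start, PCDHAC1 and PCDHAC2 had 62.3% to 66.0% G and C. The 13 alpha genes had 27.0% to 39.3%. The lowest alpha values, 27.0% in PCDHA11 and 29.7% in PCDHA9, belong to genes whose RefSeq start lies more than 500 bp away. The window of PCDHAC2 holds no GNCGCT. PCDHA10 was added to the print after its values were seen.

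The PCDHAC1 summits did not lie at its box. In HEK293T they lay 332 and 338 bp after the start, in HFF1 349 and 420 bp after it, and in K562 152 and 251 bp after it. A CTCF core (CC, 3 bases of any kind, AG, 2 of any kind, GGC) that runs on into the letters GCT begins 313 bases after the start, in the untranslated part of the first exon, beside the HEK293T summits. Its letters are in capitals below, within 30 bases; a match is a description of the sequence and shows no binding.
PCDHAC1 (chr5:140926605-140926634, + strand): ctctgcaCCCCTAGGCGGCGCTgcgctcct

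Beta promoters were called mainly in K562. K562 had 6 of the 16 beta genes called, HEK293T 2, HFF1 2 and GM12878 0, and 8 beta genes were called in no line. PCDHB5, PCDHB6, PCDHB10, PCDHB13 and PCDHB15 were called in K562 alone, as were PCDHGA2, PCDHGA3 and PCDHGA9, 8 protocadherins in all where 1.91% of all genes showed that pattern. PCDHB5 had K562 folds of 5.92 and 7.97, with a peak of 4.90 in HFF1 replicate 2. PCDHB13 had K562 folds of 6.55 and 6.74, and PCDHB6 had 6.55 and 6.07; neither had a peak in any other library. Pileups of these 3 genes in K562 ran from 17 to 23 reads, and after scaling to the depth of HEK293T none of the 6 beta genes stayed called in K562.

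The beta peak of highest fold was at PCDHB14, which was called in HEK293T alone, with folds of 9.56 and 8.87 and pileups of 13 and 12. It also had a peak of 7.51 in HFF1 replicate 2. The same peak lies within 500 bp of the start of an overlapping protein-coding record, ENSG00000279983, so the 2 genes cannot be told apart. PCDHB16 was called in HEK293T (7.21 and 6.76) and HFF1 (6.99 and 5.23) and had a peak in K562 replicate 1 (5.34). PCDHB2 was called in HFF1 (5.24 and 6.53) and K562 (6.24 and 6.74), and the values of the 2 lines overlapped. With depth scaled to HEK293T, PCDHB2 was called in no line and PCDHB16 in HEK293T alone. PCDHB16 and PCDHB2 were picked out after their values were seen.

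PCDHB1, the first beta gene, had no peak in any library. Its window is printed with those of PCDHB2 and PCDHB13 (chosen after the sequences were read) to show the word GTGGCGCT, which ends in the box in capitals, in the latter pair and not in PCDHB1.
PCDHB1 (chr5:141051264-141051383, + strand): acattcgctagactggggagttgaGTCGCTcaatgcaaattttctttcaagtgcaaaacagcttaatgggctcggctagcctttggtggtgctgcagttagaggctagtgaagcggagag
PCDHB2 (chr5:141094496-141094615, + strand): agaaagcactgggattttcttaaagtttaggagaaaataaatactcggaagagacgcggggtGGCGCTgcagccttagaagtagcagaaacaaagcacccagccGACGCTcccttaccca
PCDHB13 (chr5:141213809-141213928, + strand): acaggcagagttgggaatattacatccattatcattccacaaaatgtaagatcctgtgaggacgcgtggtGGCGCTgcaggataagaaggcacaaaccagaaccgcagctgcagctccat
Counted from the start, with bases before it negative, PCDHB1 holds GTCGCT at −86, farther upstream than the box of PCDHB2 at −48 and of PCDHB13 at −40. PCDHB2 holds a second match at −6. The K562 summits of PCDHB13 lay at −68 and −60.

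Gamma A and gamma B promoters held most of the calls. Of the 7 gamma B genes, HFF1 had 6 called, GM12878 4, K562 4 and HEK293T 2. Of the 12 gamma A genes, K562 had 6 called and each of the other 3 lines 3. In GM12878 every one of the 9 called protocadherins lay from PCDHGB3 to PCDHGC4, in the later portion of the gamma cluster, and no alpha or beta gene had a peak in either GM12878 library.

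PCDHGB3 and PCDHGA10 were open in every library. PCDHGB3 had folds of 13.3 and 15.0 in GM12878, 5.73 and 8.78 in HEK293T, 8.45 and 9.47 in HFF1, and 7.05 and 6.53 in K562. Both GM12878 folds stood above all others, and the folds of HEK293T overlapped those of HFF1 and K562. PCDHGB3 pileups were 35 and 40 in GM12878, 8 and 12 in HEK293T, 28 and 28 in HFF1 and 27 and 21 in K562. The added read lowers folds more in the shallow HEK293T libraries, so the gap between GM12878 and HEK293T depends on the measure. PCDHGA10 had 11.3 and 10.9 in GM12878, 8.91 and 7.23 in HEK293T, 6.78 and 8.48 in HFF1, and 8.40 and 6.80 in K562. Here too GM12878 was highest without overlap, and the other 3 lines overlapped. PCDHGA10 pileups were 78 and 75 reads in GM12878 and 11 to 36 in the other 6 libraries, which differ in depth. After scaling to the depth of HEK293T, both genes were still called in all 4 lines. With the 50000 best peaks of each library, both were no longer called in HFF1, and no protocadherin was called in all 4 lines.

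PCDHGA12 gave the highest mean fold of any protocadherin in GM12878, at 14.6 in each replicate. It had 6.99 and 9.15 in HFF1 and 6.92 and 5.83 in K562, and no peak in HEK293T. After scaling it was called in GM12878 and in no other line. PCDHGB1 gave the highest mean fold in K562, with 10.3 and 9.39, and had 11.1 and 6.86 in HFF1, 8.19 and 8.87 in HEK293T, and 5.49 in GM12878 replicate 2 alone. The HFF1 values spanned those of HEK293T and K562. PCDHGB5 was called in GM12878 (5.90 and 7.32), HFF1 (9.03 and 7.84) and K562 (7.36 and 8.86), with overlap between HFF1 and K562, and had a peak of 6.37 in HEK293T replicate 1. Its GM12878 call was lost after scaling and with the 50000 best peaks. In the latter setting the HFF1 calls of PCDHGB5 and PCDHGB1 were lost too. PCDHGB7 was called in GM12878 (8.13 and 8.92) and HFF1 (9.60 and 10.8), and had a peak in 1 replicate each of HEK293T (6.0) and K562 (5.88).

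Some gamma promoters were called in a line of their own. PCDHGA1 was called in HEK293T alone, with folds of 6.79 and 6.43 and no peak elsewhere. PCDHGB4 was called in HFF1 alone, with 7.57 and 6.21, as was the C-type gene PCDHGC5. No other gene of the 53 was called in HFF1 alone, where 4.14% of all genes were. PCDHGA2 was called in K562 alone, with 7.49 and 6.49, and had a peak of 6.76 in HEK293T replicate 2. No protocadherin was called in GM12878 alone, against 2.39% of all genes. With 53 genes, the counts for HFF1 alone and GM12878 alone do not set the family apart from all genes. After scaling to the depth of HEK293T, PCDHGB4 was no longer called in HFF1, and PCDHGA2 was still called in K562.

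The windows of the gamma A and gamma B genes that were among the 3 highest mean folds of a line are shown to let the shared box be seen at its place before the start. Each runs from 110 bases before to 10 after the GENCODE start, with GNCGCT in capitals. For PCDHGA12 the box begins 33 bases after the GENCODE start, so the 30 bases around it are given.
PCDHGB3 (chr5:141370132-141370251, + strand): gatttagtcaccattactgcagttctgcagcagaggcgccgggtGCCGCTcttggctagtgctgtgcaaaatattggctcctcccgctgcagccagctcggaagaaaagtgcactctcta
PCDHGB1 (chr5:141349989-141350108, + strand): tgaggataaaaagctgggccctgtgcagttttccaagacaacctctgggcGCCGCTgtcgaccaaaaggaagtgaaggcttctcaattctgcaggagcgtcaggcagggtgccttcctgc
PCDHGB5 (chr5:141397837-141397956, + strand): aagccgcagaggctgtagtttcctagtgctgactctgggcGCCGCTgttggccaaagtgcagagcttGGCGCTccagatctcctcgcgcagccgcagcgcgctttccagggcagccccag
PCDHGA10 (chr5:141412877-141412996, + strand): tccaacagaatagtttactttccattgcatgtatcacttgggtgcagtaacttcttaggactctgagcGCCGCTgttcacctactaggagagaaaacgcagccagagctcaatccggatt
PCDHGB7 (chr5:141417535-141417654, + strand): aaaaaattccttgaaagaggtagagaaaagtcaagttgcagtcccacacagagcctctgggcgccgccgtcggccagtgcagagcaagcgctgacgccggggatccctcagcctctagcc
PCDHGA12 (chr5:141430528-141430557, + strand): aggactctgagcGCCGCTgttcaccaatcg
Counted from the start, with bases before it negative, the box begins at −66 in PCDHGB3, −60 in PCDHGB1 and −42 in PCDHGA10. PCDHGB7 holds no match in this window. The summits of PCDHGA12 lay 17 to 64 bp after its start in 6 libraries, on the same side as its box.

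PCDHGC3, the first C-type gene of the gamma cluster, had the start-site peak of highest fold in the family. Its folds were 15.0 and 12.9 in GM12878, 17.2 and 15.2 in HEK293T, 11 and 10.1 in HFF1, and 5.88 and 5.29 in K562. The lines ran in the order HEK293T, GM12878, HFF1, K562 with no overlap, although the nearest values of HEK293T and GM12878, 15.2 and 15.0, were almost equal. In HFF1 the peak spanned 1387 and 1225 bp with pileups of 107 and 90, and in K562 229 and 155 bp with pileups of 22 and 17. The pileups were 112 and 94 in GM12878 and 45 and 42 in HEK293T. By pileup HEK293T lay below GM12878 and HFF1, so the order of the lines depended on the measure. PCDHGC3 was no longer called in K562 after scaling to the depth of HEK293T.

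The other C-type gamma genes gave smaller peaks. PCDHGC4 had folds of 7.64 and 6.79 in HEK293T, 5.13 and 4.30 in GM12878 and 4.21 in K562 replicate 1. Counted from the start, its HEK293T summits lay at −7 and 15 bp, and its GM12878 summits at −311 and −406 bp. With windows of 250 bp PCDHGC4 was no longer called in GM12878. PCDHGC5 was called in HFF1 alone, with 5.04 and 6.42 over 929 and 704 bp. After scaling to the depth of HEK293T, the calls of PCDHGC5 in HFF1 and of PCDHGC4 in GM12878 were lost, as they were with the 50000 best peaks.

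The windows of PCDHGC3 and PCDHGC4 show how they differ in their boxes, which are in capitals.
PCDHGC3 (chr5:141475837-141475956, + strand): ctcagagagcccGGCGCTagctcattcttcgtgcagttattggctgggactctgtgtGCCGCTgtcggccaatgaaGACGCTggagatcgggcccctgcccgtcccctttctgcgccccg
PCDHGC4 (chr5:141484887-141485006, + strand): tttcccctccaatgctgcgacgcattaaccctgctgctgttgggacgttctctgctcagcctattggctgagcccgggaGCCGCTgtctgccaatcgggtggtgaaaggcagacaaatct
PCDHGC3 holds 3 matches of GNCGCT, beginning at −98, −53 and −34. PCDHGC4 holds 1, at −31. The PCDHGC3 summits lay from −53 to −38 bp in all 8 libraries, between the outer matches.

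Motifs were then counted in all start windows. In the 250 bases before to 50 after the start, on both strands, the CTCF core (CC, 3 bases of any kind, AG, 2 of any kind, GGC) was found in 1 of 53 protocadherins and in 12% of all genes. The end of that core running into the box (AG, 2 of any kind, GGCGCT) was found in 2 (2.78% of all genes) and GGCGCT in 23 (24.9%). The site of REST, a repressor of neuronal genes (CAGCACC, 2 bases of any kind, GGACAG), was found in none (0.0601%). Finding no match says only that these letters were not in the window.

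Another 6 motifs were written down after the sequences of the protocadherins had been read, so their counts describe the family and are no independent evidence. In the same window ATGTCGCT was in 10 genes, all of them alpha genes (0.305% of all genes), GTGGCGCT in 14, all of them beta genes (1.41%), and GCGCCGCT in 10, of which 6 were gamma A and 4 gamma B (3.65%). GTGTCGCT was in 5 (0.446%) and GCGTCGCT in 3 (1.09%). Each of these words ends in the shared 6 letters GNCGCT, so the words and the box overlap. In the 110 bases before to 10 after the start, a window also chosen after reading, GNCGCT on the gene's strand was in 45 of 53 protocadherins and in 15.7% of all genes. On the other strand it was in 7 protocadherins and 14.7% of all genes.

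By class the box was present in 11 of 13 alpha genes, 1 of 2 alpha C, 15 of 16 beta, 10 of 12 gamma A, 6 of 7 gamma B and 2 of 3 gamma C. The farthest box of each gene began at a median of −48.0 bases from the start (−98 to 1), and in 36 of the 45 genes it began 75 to 25 bases before. Called and uncalled genes both held the box. Of the 45 with a box, 23 were called in at least 1 line, and 16 had no peak in any library. Of the 8 without a box, 5 were called in at least 1 line, among them PCDHGA12, whose box lies after its annotated start. The others, PCDHA9, PCDHA11 and PCDHGA8, have a RefSeq start more than 500 bp from the GENCODE start used here. In the 250 bases before to 50 after the start, 24 of 47 genes with a box on their strand were called, and 4 of 6 without.

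Summits of beta, gamma A and gamma B peaks lay near the box, and those of the alpha genes mostly did not. Over 106 peaks of 29 genes with a box, the summit lay at a median of 12.5 bp after the centre of the nearest box. Of these, 87 summits (82.1%) lay within 50 bp of the box and 61 within 50 bp of the annotated start. Within 50 bp of a box lay 20 of 24 summits of beta genes, 25 of 27 of gamma A genes, 30 of 31 of gamma B genes and 11 of 13 of gamma C genes. Of the alpha genes, 1 of 5 summits did, and 0 of 6 of PCDHAC1, whose summits lay at a median of 397 bp after the box. The box and the start are close together, and the peaks of a gene in several libraries are not independent.

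**Figure D3:**
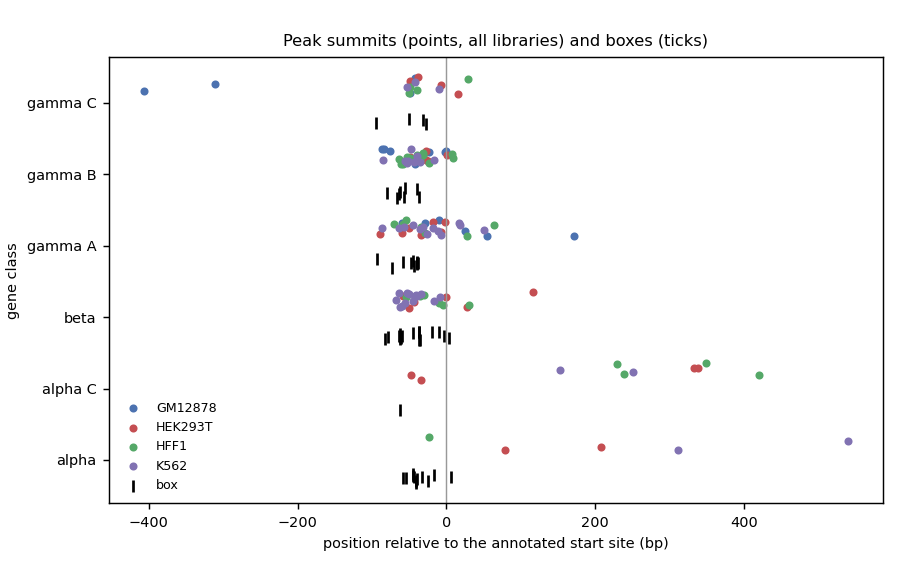
Points are peak summits in all 8 libraries, coloured by line, and ticks are the shared box, by gene class, against distance from the annotated start (bp); height within a class is only to separate points. Beta and gamma points gather at and just before the start around the ticks, while most alpha and alpha C points lie after it, up to 539 bp.

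Base composition and repeats in the locus were set beside the calls. The start windows of the 53 genes had a median of 38.7% G and C, against 60.3% over all genes, and a median CpG observed over expected of 0.555 against 0.697. The 28 genes called in at least 1 line had a median of 42.5% and the 25 others 36.3%. The share of 50-base words in the 500 bp either side of the start that recur in the locus, which could keep reads from being placed, was under 1% in 32 genes and over 50% in none. Its median was 0% in called genes and 1.26% in uncalled genes, and the highest value, 46.4%, was in PCDHB13, which was called in K562. The part of composition or of repeats in the calls was not tested.

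Outside the GENCODE start windows of the protocadherins, 25 regions of the locus had a peak in at least 1 library. Some cover or lie near other starts, among them those of TAF7 and of long non-coding genes, and the RefSeq start of PCDHA11. Calls again needed a peak in both replicates, and there were 9 in HEK293T, 8 in GM12878, 8 in K562 and 6 in HFF1. Only 1 was called in all 4 lines and 4 in 3 lines, while 13 were called in 1 line and 6 in none. The same counts were not made over regions elsewhere in the genome. These counts, and those of regions called in a single line below, therefore describe this locus only. The region called in all 4 lines, chr5:141320208-141321371, covers the start of TAF7, a gene for a general transcription factor that lies between the beta and gamma clusters. Its folds were 15.5 and 16.3 in GM12878, 17.0 and 17.3 in HEK293T, 14.1 and 15.8 in HFF1 and 10.7 and 13.4 in K562. K562 was lowest in fold without overlap, but not in pileup. The pileups were 94 and 104 in K562, 74 and 74 in HFF1, 105 and 113 in GM12878 and 48 and 52 in HEK293T. The library background was 2.21 and 1.97 in K562 and 2.43 and 2.06 in HFF1.

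**Figure D4:**
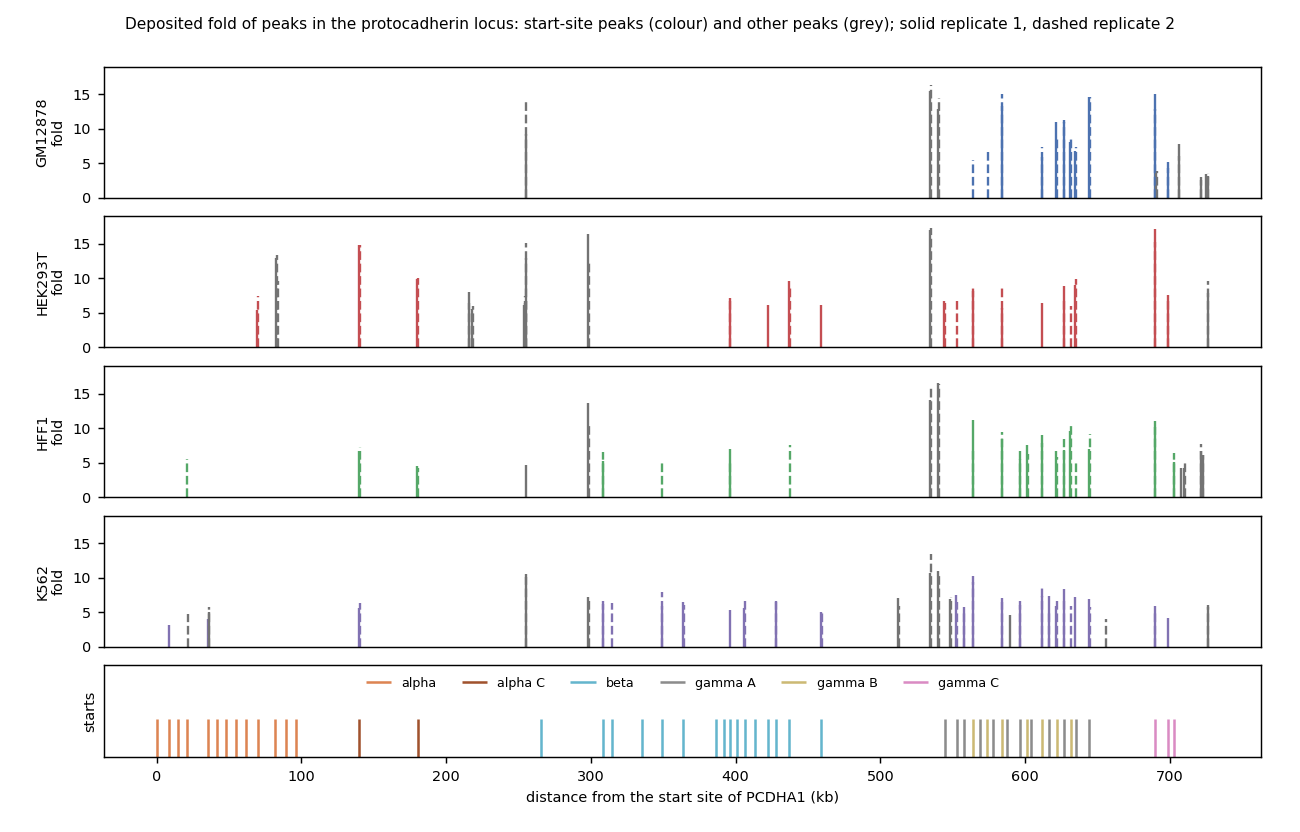
Vertical lines are peaks in the locus for each line, with height the deposited fold (linear) and position the distance from the start of PCDHA1 (kb); coloured lines lie within 500 bp of a protocadherin start, grey lines elsewhere, and the lowest panel marks the starts. GM12878 has coloured lines in the gamma cluster alone, and all 4 lines have the grey TAF7 peak before the gamma genes.

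A region between the alpha and beta clusters, chr5:141041070-141041446, was called in GM12878 (9.22 and 13.9), HEK293T (13.0 and 15.1) and K562 (10.6 and 10.1). HFF1 had a peak in replicate 1 alone, of 4.66, so it was the lowest of the 4 lines. The region lies after the alpha constant exons and within 500 bp of the start of a long non-coding RNA gene, ENSG00000288892. HEK293T alone also had both neighbours called, chr5:141040112-141040451 (6.17 and 7.38) and chr5:141040831-141041001 (6.42 and 6.77), in an exon of that RNA. HS5-1, an enhancer known to act on the alpha genes, lies downstream of the alpha constant exons and holds CTCF and REST sites; whether either region is that element was not tested.

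The sequence of the region called in 3 lines is shown because it holds a CTCF core and both arms of a REST site, TTCAGCACC and GGACAGC, all on the minus strand and in capitals. The HEK293T region chr5:141040112-141040451 holds a CTCF core on the same strand, as does the region over the last constant exon of the gamma genes described next. The arms were searched separately after the sequence was seen.
Between alpha and beta, 3 lines (chr5:141041241-141041400, minus strand): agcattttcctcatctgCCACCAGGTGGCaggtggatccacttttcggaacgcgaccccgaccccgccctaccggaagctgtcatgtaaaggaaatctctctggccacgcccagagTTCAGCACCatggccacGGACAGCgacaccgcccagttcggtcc
Between alpha and beta, HEK293T (chr5:141040343-141040394, minus strand): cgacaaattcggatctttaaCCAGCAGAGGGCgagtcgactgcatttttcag
Last gamma constant exon (chr5:141512494-141512523, minus strand): aggctatggCCACTAGGGGGCgcactgggg
Of the 25 regions, 6 held a CTCF core, 3 on each strand. Among 13499 other peak regions of chromosome 5 between 150 and 1164 bp, 10.3% held one, 0.548% the left REST arm, 6.07% the right arm and 0.119% both.

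The other regions called in 3 lines lay after PCDHB1, before the gamma cluster and at its end. A region after PCDHB1, chr5:141084480-141084757, at the end of the long non-coding gene ENSG00000279558, had folds of 16.4 and 12.7 in HEK293T, 13.7 and 10.5 in HFF1 and 7.17 and 7.01 in K562, and none in GM12878. The start of the long non-coding gene ENSG00000272070 before the gamma cluster, chr5:141326064-141326727, had 12.8 and 14.4 in GM12878, 16.5 and 16.4 in HFF1 and 11 and 10.2 in K562, and none in HEK293T. The last gamma constant exon, chr5:141512322-141512864, had 7.84 and 9.59 in HEK293T, 5.77 and 5.99 in K562 and 3.15 and 3.65 in GM12878, and none in HFF1. Among the 3 lines with a peak there, the fold was highest in HEK293T and lowest in GM12878, without overlap. The pileups ran the other way, at 53 and 59 in GM12878, 50 and 47 in K562 and 20 and 28 in HEK293T. The libraries differ in depth, and the order of the lines depended on the measure.

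HEK293T had 5 regions of its own, the most of any line. The strongest was the one over the RefSeq start of PCDHA11. In the intron after PCDHAC2, chr5:141001970-141002214 had folds of 8.07 and 6.39. K562 had 3 of its own. Of these, chr5:141334288-141334647 lay inside the gamma introns after PCDHGA1 (6.88 and 7.23). The others were chr5:141298301-141298706 inside the TAF7 gene (7.00 and 5.97) and chr5:140822116-140822294 within the first exon of PCDHA5 (4.99 and 5.73). GM12878 had 3 of its own, of which the highest, chr5:141492105-141492661 in the intron after PCDHGC5, had 7.76 and 6.03. The others were chr5:141476585-141477036 in the first exon of PCDHGC3 (3.55 and 3.86) and chr5:141511205-141511489 in the last gamma constant exon (3.44 and 3.22). HFF1 had 2, both in the intron after PCDHGC5. Of these, chr5:141508789-141509400 had 6.12 and 6.11 with pileups of 98 and 85 reads, and chr5:141496113-141496474 had 4.19 and 5.11.

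Neighbouring and related genes were counted in the same way. Of 31 other protein-coding genes in the locus or within 500 kb of it, 23 were called in GM12878, 24 in HEK293T, 25 in HFF1 and 24 in K562, and 22 in all 4 lines. Among 11 non-clustered protocadherins, HEK293T had 10 called, HFF1 8, GM12878 5 and K562 4. PCDH1, PCDH9, PCDH10 and PCDH12 were called in all 4 lines (PCDH1 and PCDH12 are also among the 31 neighbours), and PCDH11X in none. As deposited, HEK293T had the most non-clustered genes and K562 had the most clustered genes. After scaling to the depth of HEK293T, HEK293T had the most of both, with 10 non-clustered genes against 4 in GM12878, 6 in HFF1 and 4 in K562. Of 17 genes known to act on the clusters (CTCF, cohesin subunits and loaders, REST, SMCHD1, DNA methyltransferases, SETDB1 and WIZ), 15 were called in all 4 lines, and WIZ and STAG2 were not called in HEK293T.

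As deposited, HFF1 and K562 shared 10 called protocadherins, 66.7% of the HFF1 list and 55.6% of the K562 list. GM12878 and HFF1 shared 7, 77.8% of the GM12878 list and 46.7% of the HFF1 list. HEK293T and K562 shared 5, 41.7% and 27.8% of their lists. Over all genes, a pair of lines shared 82.9% to 96.4% of a list. With depth scaled to HEK293T, HFF1 and K562 shared 4, as did GM12878 with HEK293T, GM12878 with HFF1 and HEK293T with HFF1. With the 50000 best peaks, where HFF1 had 2 called, HFF1 and K562 shared 0, so the order of the pairs depended on the setting. In these bulk libraries a peak in few cells and a weak peak in many cells cannot be told apart.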

How the data were processed

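Bulk ATAC-seq peak lists were deposited per library for 10 libraries; the 8 human lists were used. Per the submitters' processing notes, cutadapt 3.2, Bowtie2 2.4.2, Picard and MACS2 2.2.7.1 were used with builds hg38 and mm10, and the filters and read shift are not given in the sources used here. The authors deposited each peak with a fold (a linear ratio), a −log10 p-value and −log10 q-value, and a score. The lowest deposited −log10 q was 2.00 to 2.05. The peak positions, in the authors' files, carry no read counts.

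Peaks on the autosomes and X were intersected (at least 1 bp) with 500 bp either side of GENCODE 44 starts, with Python 3.11.15, pandas 2.3.3 and scipy 1.17.1. Pileup and background were solved from the fold and −log10 p by a Poisson tail, for 100% of peaks within a relative tolerance of 0.001; the method was tested on simulated data. Distal regions are peaks from the first to the last gene outside these windows, merged over the 8 lists. Sequences came from the hg38 genome, and the PCDHA11 start from RefSeq (GRCh38.p14), which had a start for 47 of 53 genes. RefSeq and GENCODE starts differed by more than 500 bp for PCDHA9 (610 bp), PCDHA11 (774 bp) and PCDHGA8 (2476 bp).

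The genes and lists were chosen with earlier results of these data known. Values were named by rule: all C-type genes, PCDHB1, genes with a peak in all 8 libraries, genes called in 1 line (the 4 highest where more than 6), and the 3 highest mean folds of each line; of the regions, those called in most lines and the 3 highest of each line alone. A marker gene and a start window are not reported here. In all, 10 motif definitions were searched in 3 windows. No paired or replicate model was fitted, since presence of a peak in 2 replicates is a call and not a test.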

Additional observations from a re-analysis of the deposited data

How the results depend on the processing

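Of 114 recomputed values, 105 kept within 1.5 times the value reported and 9 did not. With the 50000 best peaks of each library, HFF1 had 2 called protocadherins, K562 6, all 4 lines 0, and GM12878 2 distal regions. With depth scaled to HEK293T, HFF1 had 6 and K562 5. With a peak in either replicate sufficient, 7 genes were called in all 4 lines. In 500 bases either side of the start, 15 genes held the CTCF core (29.6% of all genes) and 4 the core running into the box (7.25%). The first of these used fewer peaks, the second fewer reads; the RefSeq starts, the depth scaling, the box and its window and the REST arms were chosen after seeing the data.

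Leaving out each replicate in turn gave 9 to 11 called genes in GM12878, 14 to 15 in HEK293T, 15 to 19 in HFF1, 20 to 23 in K562, 3 to 4 in all 4 lines and 23 to 25 in no line, and 8 distal regions in GM12878, 9 to 11 in HEK293T, 6 to 8 in HFF1 and 9 to 10 in K562. With 1 replicate left, a call needed a peak in that replicate only. The gene counts per line and in all 4 lines could therefore not fall, and the count in no line could not rise. No paired analysis was possible because the results come from no test. Shallow libraries limit what is missed: HEK293T, with the lowest background, had a median pileup of 16 reads per peak against 30 to 35 elsewhere, so absence of a peak there means not detectable at this depth. PCR duplicates cannot be told from separate molecules without molecular identifiers, so no counting interval is given.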
